A study of Mus musculus with 18 samples.

Results

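The 10 genes described here encode receptors through which circulating, nerve-derived and locally made agonists contract arterial smooth muscle. They were taken by symbol from both deposited count tables: the type 1 angiotensin receptors Agtr1a and Agtr1b, the endothelin receptors Ednra and Ednrb, the alpha-1 adrenoceptors Adra1a, Adra1b and Adra1d, the V1a vasopressin receptor Avpr1a, the serotonin receptor Htr2a and the thromboxane receptor Tbxa2r. All 10 were found, of 55453 gene symbols in the tables, and all 10 passed the filter on low counts in both experiments. The study edited a CArG box, to which the transcription factor SRF binds, near the start of Tspan2 in mice. It then sequenced bulk mRNA of single aortae stripped of the surrounding tissue to ask which genes change with the edit. In the homology-directed repair (HDR) experiment, 12-week-old mice labelled C57BL/6, in which 3 bases of the element had been replaced with Cas9, a guide RNA and a repair oligonucleotide, were homozygous for the edit (Tspan2 sg/sg, 5 libraries) or wild type (5 libraries). In the prime editing (PE2) experiment, 8-week-old mice labelled FVB/N/B6(Cg)-Tyrc-2J/J, in which 1 base of the same element had been replaced with a Cas9 nickase joined to a reverse transcriptase, were homozygous (Tspan2 peg/peg, 4 libraries) or wild type (4 libraries). The HDR labels gave 3 females and 2 males of each genotype, and the PE2 labels gave 4 female peg/peg mice and 3 females and 1 male of wild type. Both edits were inherited and so lay in every cell type, not only in smooth muscle. By the study's methods, founders of both kinds came from the same B6(Cg) and FVB crosses and were then bred to C57BL/6J. The labelled background, age, editor and allele changed together between the experiments, so their parts in any difference of level between HDR and PE2 libraries cannot be told apart.

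All 10 products are receptors with 7 membrane-spanning helices. In vascular smooth muscle they couple mainly to the Gq/11 proteins, which activate phospholipase C and release Ca2+ from internal stores. The receptor present differs between vessel beds: large conduit arteries such as the rodent aorta are known for an alpha-1D response to noradrenaline and for strong contractions to serotonin, endothelin-1 and thromboxane mimetics. Ednrb is the exception in this set, since on endothelium it triggers nitric oxide release and clears endothelin-1.

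Counts assigned to genes totalled 17290992 to 24880385 per HDR library and 38820265 to 44895615 per PE2 library. Values are given as TMM CPM, that is, counts relative to the library's total (CPM) after edgeR's scaling of these totals (TMM). Tspan2, the targeted gene, was lower in every mutant library: 208 ± 59.9 TMM CPM in HDR wild type and 24.8 ± 8.11 in sg/sg (SD, n = 5 and 5). In PE2 it had 218 ± 45 in PE2 wild type and 19.9 ± 6.73 in peg/peg (SD, n = 4 and 4). All 7 smooth muscle markers, Acta2 and Myh11 among them, were counted in each group. Among the PE2 libraries, peg/peg library 3 stood apart. It had a mean correlation of 0.896 with the other PE2 libraries across 16401 genes, against 0.965 to 0.969 for the rest. Its summed level of 6 urothelial genes (uroplakins and Krt5) was 994 TMM CPM against 3.54 to 43.7 in the other PE2 libraries. That of skeletal muscle markers was 1132 against 7.74 to 19.9. This second sum rested on Acta1, Ckm and Tnnt3, which reached 755.5, 300 and 74.2 TMM CPM among peg/peg libraries. Myh4, Mylpf and Atp2a1 reached no more than 0.987, 2.06 and 1.15 there. HDR sums ran from 0.433 to 91.9 for the urothelial genes and 5.24 to 125 for skeletal muscle, both highest in wild-type library 3. In peg/peg library 3 fat markers summed to 32.9 against 497 to 2375 in the other PE2 libraries. Eln, the elastin gene, stood at 622 there against 11606 to 34816. The HDR libraries held Eln at 429 to 2909, a range that includes 622. The homeobox gene Hoxa11 stood at 49.5 TMM CPM in peg/peg library 3, against 0.885 to 1.83 in the other PE2 libraries. In HDR libraries Hoxa11 ran from 0.127 to 3.68. Which tissues made up peg/peg library 3 was not tested. The PE2 changes of the receptors are therefore given with and without peg/peg library 3. Among the HDR libraries, 4 (numbers 5 and 6 of each genotype in the deposited table) held the Y-linked Ddx3y at 178 to 233 TMM CPM and the other 6 held 0 counts of it. Xist stood at 1.82 TMM CPM or less in these 4 and at 1117 or more in the other 6. The labels also give 2 males of each genotype, but column names do not tie libraries to the sex in the labels. For comparisons of bulk tissue such as this, fewer cells of a type and less RNA per cell cannot be told apart.

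Per kilobase of exon, the thromboxane receptor and the alpha-1D adrenoceptor were the 2 leading receptor transcripts of the aorta in both sets of wild-type mice. In HDR wild type, Adra1d had 8.97 ± 1.90 TMM CPM per kb (SD, n = 5) and Tbxa2r had 6.13 ± 0.572. Below them came Ednrb at 3.89 ± 1.63, Htr2a at 3.11 ± 1.45, Ednra at 2.95 ± 0.714, Adra1a at 2.81 ± 1.33, Avpr1a at 2.46 ± 1.25, Agtr1b at 1.6 ± 0.556, Agtr1a at 1.14 ± 0.359 and Adra1b at 0.381 ± 0.191 TMM CPM per kb. Every pair of neighbours in this order overlapped in range between mice. These ranges do not use the pairing of receptors within a library, and Adra1b was the lowest receptor per kb in each HDR wild-type library. In HDR wild-type library 6 the highest was Ednrb, at 6.25 against 6.18 for Tbxa2r and 5.73 for Adra1d. In PE2 wild type, Adra1d had 18.7 ± 8.71 and Tbxa2r had 16.3 ± 6.45 TMM CPM per kb (SD, n = 4), and the lowest Tbxa2r library, at 9.22, lay above the highest Ednra library, at 4.98. Ednra followed at 3.64 ± 0.904, Ednrb at 3.44 ± 0.900, Agtr1a at 1.97 ± 0.692, Htr2a at 1.93 ± 0.626, Avpr1a at 1.54 ± 0.396, Agtr1b at 1.32 ± 0.503, Adra1a at 1.2 ± 0.662 and Adra1b at 0.700 ± 0.296 TMM CPM per kb. Apart from the gap below Tbxa2r, all neighbours overlapped here as well. By mean, the first 2 places were exchanged in peg/peg, with Tbxa2r at 10.7 ± 5.04 and Adra1d at 9.38 ± 10.9. Adra1b, the alpha-1B adrenoceptor gene, was last by mean in all 4 groups, but not within every PE2 library. The lowest receptor was Adra1a in PE2 wild-type library 3 and peg/peg libraries 3 and 4. It was Agtr1b in PE2 wild-type library 4 and Adra1b in the remaining PE2 libraries. Among the sg/sg libraries the 3 lowest receptors were separated, since Agtr1b (1.73 to 3.59 TMM CPM per kb) did not overlap Agtr1a (0.53 to 1.36), which did not overlap Adra1b (0.23 to 0.38). The place of Adra1a depends on the length used: with its longest transcript (4282 bases) in place of its merged exons (8728 bases) it moved from 6th to 3rd in HDR wild type and from 9th to 6th in PE2 wild type.

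No receptor differed between genotypes beyond the spread between mice in either experiment. By edgeR's quasi-likelihood test, 0 of 10 receptors reached an adjusted p under 0.05 in HDR aortae, where 0.00609% of 16423 genes tested did (Tspan2 alone), and 0 of 10 had an unadjusted p under 0.05, against 1.98% of all genes. DESeq2 also called 0 of 10, with 1 receptor (Agtr1b) at an unadjusted p under 0.05. It called 0.00933% of 42879 genes and put 1.6% of them under that p. These 42879 include many genes that edgeR's filter on low counts left out, so the shares of the 2 tools are not on the same genes. Limma voom called 0 of 10, with 0 under that p. In PE2 aortae edgeR called 0 of 10, where 0.0061% of 16401 genes were called (again Tspan2 alone), and 1 of 10, Avpr1a, had an unadjusted p under 0.05, against 4.3% of all genes. There DESeq2 called 0 of 10 with 1 receptor, again Avpr1a, at an unadjusted p under 0.05, against 0.189% and 5.43% of 17481 genes. Limma voom called 0 of 10, with 0 under that p. Without peg/peg library 3 edgeR called 0 of 10 and put 0 of 10 at an unadjusted p under 0.05, against 0.012% and 4.1% of 16668 genes. The log2 fold changes of the 10 receptors ran from -0.53 to 0.60 in HDR, with a median of 0.09, and from -1.0 to 2.02 in PE2, with a median of -0.07. Without peg/peg library 3 the PE2 range narrowed to -0.60 to 0.50, with a median of -0.06. The medians over all genes tested were 0.00, 0.01 and -0.01 in these 3 fits. Standard errors were 0.16 to 0.41 for the receptors in HDR and 0.19 to 0.66 in PE2 without library 3, against medians of 0.19 and 0.19 over all genes. Fold changes above 2 either way lay outside the 95% interval for 5 of 10 receptors in HDR and for 4 of 10 in PE2 without library 3, and for the others the interval does not exclude a change of that size. The ranges of wild-type and mutant libraries overlapped for all 10 receptors in both experiments, whereas 0.317% of genes in HDR and 2.54% in PE2 did not overlap (5.22% without library 3). No receptor's genotype effect differed between the experiments (0 of 10 by edgeR, and 0 of 10 at an unadjusted p under 0.05, where 0.0% and 5.13% of 18094 genes passed).

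**Figure D1:**
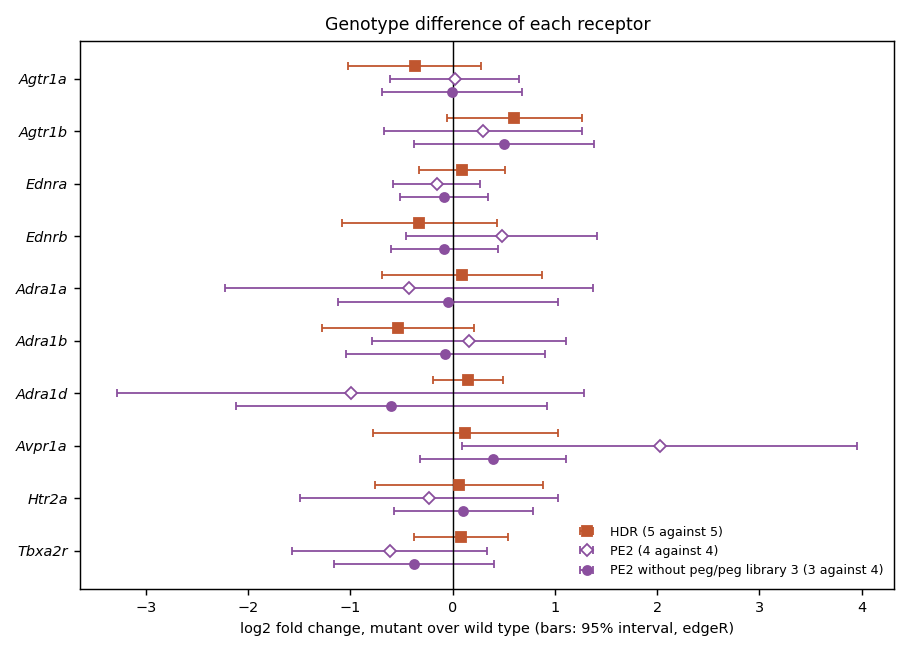
Log2 fold change of each receptor, mutant over wild type, with 95% intervals from edgeR's quasi-likelihood fit: HDR (5 against 5 libraries), PE2 (4 against 4) and PE2 without peg/peg library 3 (3 against 4). All intervals include 0 except that of Avpr1a in PE2 with library 3, at 2.02, which becomes 0.39 without it.

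**Figure D2:**
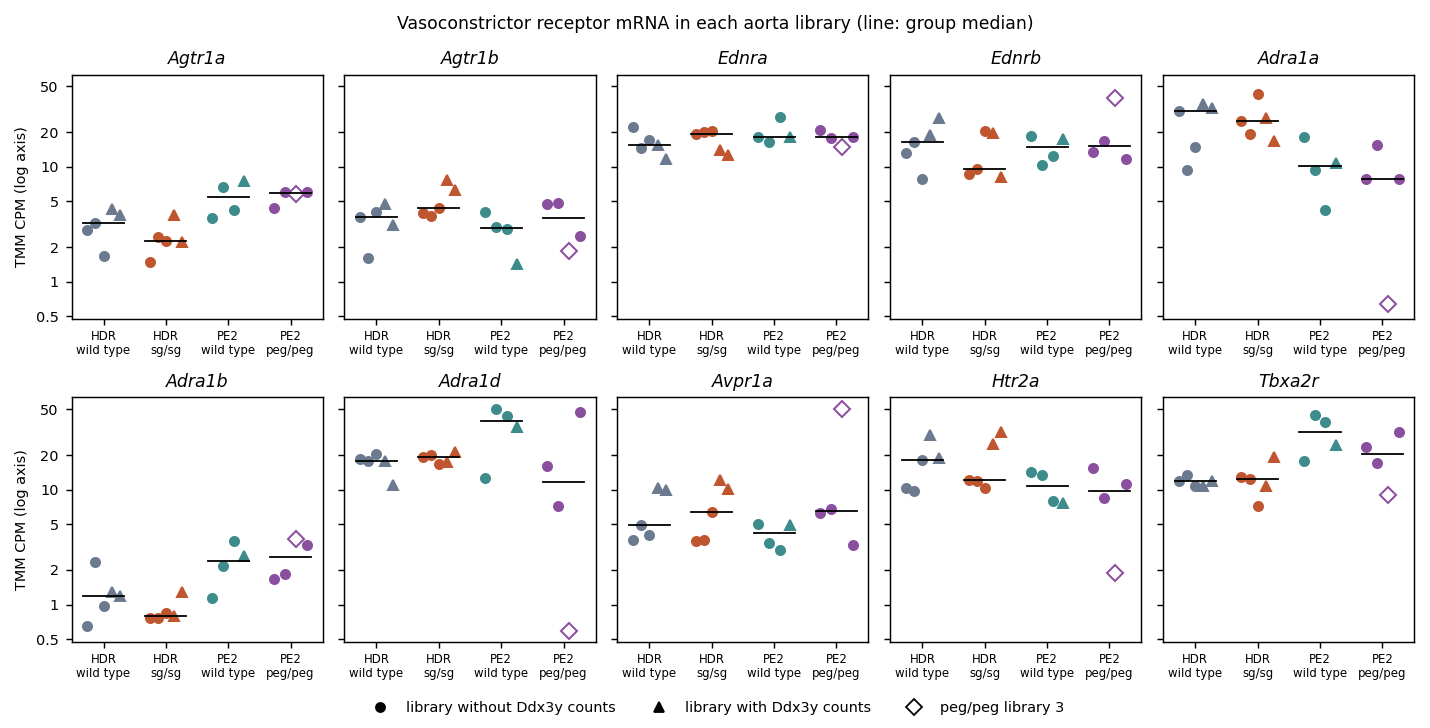
TMM CPM of each receptor in all 18 libraries on a log axis shared by the panels, with a line at the group median, triangles for libraries with Ddx3y counts and an open diamond for peg/peg library 3. The diamond lies outside the other 7 PE2 libraries for 8 of the 10 receptors, and the HDR triangles lie above the HDR circles for Avpr1a and Htr2a.

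Peg/peg library 3 lay outside the range of the other 7 PE2 libraries for 8 of 10 receptors, and for 59.0% of the 16401 genes tested, against 13.4% to 26.6% when each other library was set beside the rest. It was below all 7 for Ednra, Adra1a, Adra1d, Htr2a and Tbxa2r and above all 7 for Ednrb, Adra1b and Avpr1a, and only Agtr1a and Agtr1b lay within. The largest departure was Adra1d, with 27 counts (0.592 TMM CPM) against a median of 34.9 TMM CPM in the other 7. Adra1a had 29 counts (0.636 against a median of 9.43 TMM CPM), and Avpr1a had 2310 counts (50.7 against a median of 4.97 TMM CPM). Smooth muscle transcripts were present in this library, with Acta2 at 14215 TMM CPM, inside the range of the others (13257 to 24723), and Myh11 at 15909, above it (4721 to 10121). The part of the urothelial, Acta1, Ckm, Tnnt3 and fat values above in these receptor values was not tested.

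The 2 genes for the type 1 angiotensin receptor, Agtr1a and Agtr1b, were both counted at low levels in all 18 libraries. Rodents carry a pair of these genes where other mammals have a single one: Agtr1a is the main form in kidney and most vessels, and Agtr1b has been tied to contraction of the mouse abdominal aorta by angiotensin II. Agtr1a lies at chr13:30336441-30382867 on the plus strand and Agtr1b at chr3:20314473-20367177 on the minus strand (GRCm38, GENCODE), the second on the same chromosome as Tspan2 but 82.4 Mb away. Their coding sequences, each 1077 bases long, are 90.8% identical, so the reads of one could in principle be counted for the other. The longest stretch without a difference is shown first, and below it the 60 coding bases where the pair differ most, with the 13 bases that differ in capitals. All are written 5′ to 3′ from the GENCODE transcripts, numbered from the A of the start codon.
Agtr1a and Agtr1b, coding bases 75 to 140, identical: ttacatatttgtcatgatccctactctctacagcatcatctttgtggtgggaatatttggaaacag
Agtr1a, coding bases 964 to 1023: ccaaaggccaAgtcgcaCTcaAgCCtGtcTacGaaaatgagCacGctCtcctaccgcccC
Agtr1b, coding bases 964 to 1023: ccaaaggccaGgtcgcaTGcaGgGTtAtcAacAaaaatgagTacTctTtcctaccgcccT
Since the longest shared coding run is 66 bases, no read of 75 or 100 bases from the coding sequence matches both genes without a mismatch. The other receptor families are less alike, with 53.4% to 60.1% identity between members.

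Agtr1a had 2.81, 3.25, 1.67, 4.28 and 3.8 TMM CPM in HDR wild-type libraries 2 to 6 and 1.47, 2.46, 2.26, 3.78 and 2.23 in sg/sg libraries 2 to 6. It had 3.56, 6.66, 4.17 and 7.57 in PE2 wild-type libraries 1 to 4 and 4.38, 6.02, 5.79 and 6.04 in peg/peg libraries 1 to 4. The lowest sg/sg library lay below all wild-type libraries and the other 4 within their range, while in PE2 the peg/peg values lay inside the wild-type range. In HDR Agtr1a had a log2 fold change of -0.37 (SE 0.30, 95% interval -1.02 to 0.28), with edgeR unadjusted p = 0.238. In PE2 this was 0.02 (SE 0.27, 95% interval -0.61 to 0.65), or -0.01 (SE 0.30) without library 3.

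Agtr1b had 3.66, 1.6, 4.05, 4.77 and 3.08 TMM CPM in HDR wild type and 3.92, 3.71, 4.40, 7.70 and 6.32 in sg/sg. The PE2 values were 4.05, 2.98, 2.89 and 1.42 in wild type and 4.72, 4.88, 1.84 and 2.50 in peg/peg. The 2 highest HDR values were both sg/sg, yet the other 3 sg/sg libraries lay among wild type, and in PE2 the 2 highest were peg/peg libraries 1 and 2 with library 4 among wild type. Its log2 fold change in HDR was 0.60 (SE 0.30, 95% interval -0.06 to 1.26), with the smallest unadjusted p of the 10 receptors there (edgeR p = 0.0694, adjusted p = 1.000, exact two-sided permutation p = 0.119). In PE2 it was 0.30 (SE 0.42, 95% interval -0.67 to 1.27), or 0.50 (SE 0.38, 95% interval -0.38 to 1.39) without peg/peg library 3. Within the 6 HDR libraries that lacked Ddx3y the means were 3.11 TMM CPM in wild type and 4.01 in sg/sg, and within the 4 that held it they were 3.93 and 7.01.

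Set against each other within a library, the angiotensin receptor pair gave the only subtype share with an unadjusted p under 0.05. Agtr1a made up 37.2, 61.0, 24.1, 40.9 and 48.7% of the length-corrected counts of the pair in HDR wild-type libraries 2 to 6 and 22.4, 33.8, 28.3, 27.4 and 21.4% in sg/sg libraries 2 to 6. The sg/sg values clustered at the low end, and wild-type library 4 lay among them. The mean was 42.4 ± 13.7% in wild type and 26.7 ± 5.00% in sg/sg (SD, n = 5 and 5). The difference was -15.7 percentage points. By an exact two-sided permutation test p was 0.0397, where 0.00794 is the smallest these group sizes allow, and it was 0.397 after Benjamini-Hochberg adjustment over the 10 shares tested. In PE2 the share was 59.2 ± 17% in wild type and 56.6 ± 13.6% in peg/peg, and 51.8 ± 12.0% in peg/peg without library 3 (exact permutation p = 0.829 and 0.571). The pair together had 99 to 429 counts per library, so these shares rest on few reads.

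**Figure D3:**
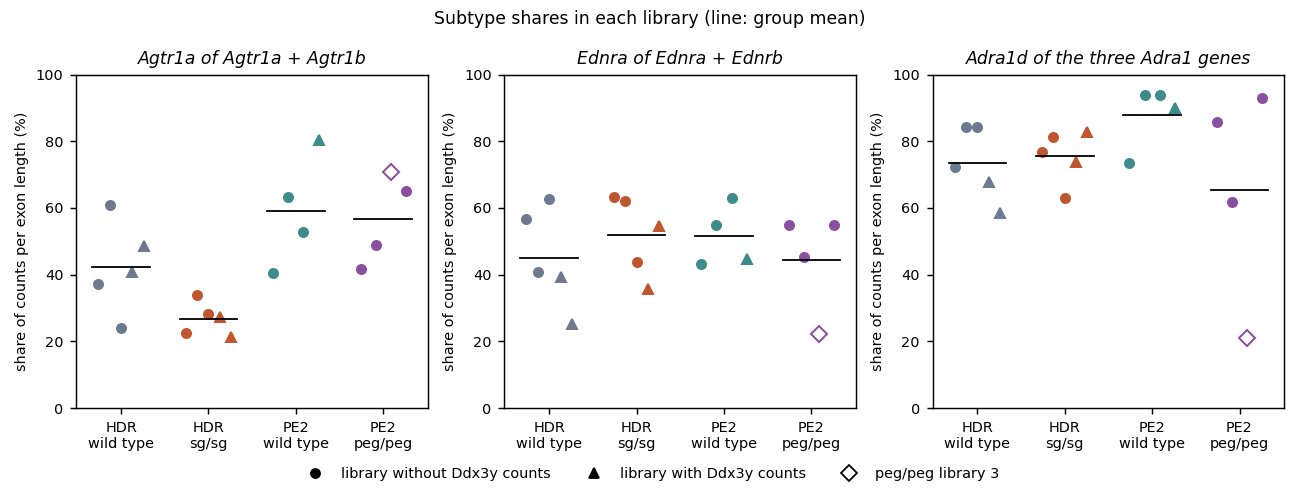
Share of one subtype in the length-corrected counts of its family, in percent, for each library, with a line at the group mean, triangles for libraries with Ddx3y counts and an open diamond for peg/peg library 3. The sg/sg libraries lie between 21.4% and 33.8% for Agtr1a, and peg/peg library 3 lies lowest for Ednra and Adra1d.

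The endothelin receptor genes were counted at like levels per length in both sets of mice. Ednra encodes the ETA receptor, the contractile receptor of smooth muscle, and lies at chr8:77663031-77724464 on the minus strand. Ednrb encodes ETB, which on endothelium opposes contraction and is also found on smooth muscle, melanocytes and glia, and lies at chr14:103814625-103844402 on the minus strand. Ednra had 22.2, 14.5, 16.9, 15.5 and 11.6 TMM CPM in HDR wild type and 19.2, 20.1, 20.3, 14.0 and 12.5 in sg/sg. In PE2 the values were 18, 16.3, 27.2 and 18.1 in wild type and 20.8, 17.8, 14.7 and 18.2 in peg/peg. All groups lay in the same band, and the lowest wild-type value and the 2 lowest sg/sg values in HDR belonged to libraries with Ddx3y. The log2 fold changes were 0.09 (SE 0.19, 95% interval -0.33 to 0.51) in HDR and -0.16 (SE 0.18, 95% interval -0.58 to 0.27) in PE2 (-0.08 without library 3). In its exons 91 bases overlap the opposite-strand gene 4933431K23Rik, with the same limit as for Adra1d below.

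Ednrb had 13.2, 16.5, 7.88, 18.8 and 26.7 TMM CPM in HDR wild type and 8.72, 9.53, 20.3, 19.6 and 8.13 in sg/sg. In HDR 3 sg/sg libraries were low and 2 high, all of them within the wild-type range. The PE2 values were 18.4, 10.4, 12.5 and 17.4 in wild type and 13.3, 16.8, 39.9 and 11.6 in peg/peg, where library 3 was the highest of all 18. Between HDR genotypes Ednrb differed by a log2 fold change of -0.33 (SE 0.35, 95% interval -1.09 to 0.44). In PE2 this was 0.48 (SE 0.41, 95% interval -0.46 to 1.41), and -0.08 (SE 0.23, 95% interval -0.61 to 0.44) without library 3. The share of Ednra in the pair was 44.9 ± 14.9% in wild type and 51.9 ± 11.9% in sg/sg (exact permutation p = 0.429, n = 5 and 5). In PE2 it was 51.5 ± 9.24% in wild type and 44.3 ± 15.3% in peg/peg (exact permutation p = 0.571, n = 4 and 4), or 51.7 ± 5.58% in peg/peg without library 3.

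Of the 3 alpha-1 adrenoceptor genes, which mediate contraction by noradrenaline from sympathetic nerves, Adra1d held most of the length-corrected counts in 17 of 18 libraries. Adra1d, the form linked to contraction of the rodent aorta, lies at chr2:131545850-131562283 on the minus strand, and 147 bases of its exons overlap the antisense gene Gm14285, whose reads may be counted for it, since the strand setting of the counting is not given in the sources used here. Adra1a, the form of resistance arteries and of many other tissues, lies at chr14:66635251-66771168 on the plus strand, and Adra1b, found in vessels, liver and brain, at chr11:43774606-43901210 on the minus strand.

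Adra1d had 18.3, 17.9, 20.4, 17.7 and 10.9 TMM CPM in HDR wild type and 19.2, 20.2, 16.6, 17.5 and 21.1 in sg/sg. All but wild-type library 6 lay within a narrow band, and the sg/sg values spanned its whole width. The PE2 values were 12.8, 50.8, 43.8 and 34.9 in wild type and 16.0, 7.14, 0.592 and 47.5 in peg/peg. There the spread was wide in both genotypes: wild-type libraries 2, 3 and 4 and peg/peg library 4 were high, and wild-type library 1 and peg/peg libraries 1, 2 and 3 were low. The coefficient of variation in wild type was 21.2% in HDR and 46.5% in PE2, against medians of 20.3% and 16.1% over all genes tested. For Adra1d the log2 fold change in HDR was 0.15 (SE 0.16, 95% interval -0.19 to 0.50), the narrowest interval of the set. In PE2 it was -1.0 (SE 0.99, 95% interval -3.28 to 1.28), or -0.60 (SE 0.66, 95% interval -2.12 to 0.92) without library 3.

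Adra1a had 30.4, 9.34, 14.8, 35.2 and 32.7 TMM CPM in HDR wild type and 24.9, 19.4, 42.7, 26.5 and 16.8 in sg/sg. In PE2 the values were 18.2, 9.43, 4.17 and 10.9 in wild type and 7.80, 15.6, 0.636 and 7.76 in peg/peg. It varied several-fold among mice of one genotype, and high and low libraries occurred in both. The log2 fold changes were 0.09 (SE 0.36, 95% interval -0.69 to 0.87) in HDR, -0.42 (SE 0.78, 95% interval -2.22 to 1.38) in PE2 and -0.05 (SE 0.47, 95% interval -1.12 to 1.03) in PE2 without library 3. Fat markers also varied between libraries. Summed over Adipoq, Plin1, Lep, Cidea, Ucp1 and Retn, none of them at 0 in all libraries of a group, they spanned 411 to 1827 TMM CPM in HDR wild type, 262 to 1538 in sg/sg, 558 to 2375 in PE2 wild type and 32.9 to 1673 in peg/peg. The lowest sum and the lowest Adra1a fell in the same library in each of the 4 groups. The highest sum and the highest Adra1a fell in the same library in sg/sg and in peg/peg, but not in either wild-type group. The part of fat in these levels was not tested.

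Adra1b had 0.652, 2.36, 0.969, 1.28 and 1.18 TMM CPM in HDR wild type and 0.763, 0.770, 0.847, 0.793 and 1.27 in sg/sg. In PE2 the values were 1.15, 2.15, 3.55 and 2.62 in wild type and 1.67, 1.86, 3.75 and 3.28 in peg/peg. It was near the limit of counting in HDR, with 13 to 50 counts per library. Wild-type library 3 was the highest HDR value and sg/sg library 6 was well above the other 4 of its group. Its log2 fold change was -0.53 (SE 0.34, 95% interval -1.27 to 0.21) in HDR. With 1 HDR library left out it ran from -0.70, without wild-type library 2, to -0.20, without wild-type library 3. In PE2 it was 0.16 (SE 0.41, 95% interval -0.79 to 1.11), or -0.07 (SE 0.42, 95% interval -1.05 to 0.90) without library 3. Adra1d made up 73.4 ± 11.1% in wild type and 75.5 ± 7.89% in sg/sg of the length-corrected alpha-1 counts (exact permutation p = 0.746, n = 5 and 5). In PE2 its share was 87.8 ± 9.72% in wild type and 65.4 ± 32.6% in peg/peg (exact permutation p = 0.2, n = 4 and 4), or 80.2 ± 16.5% in peg/peg without library 3. Peg/peg library 3 was the exception to its lead, with 85.9, 61.7, 20.9 and 93.1% for Adra1d and 5.03, 9.0, 74.2 and 3.61% for Adra1b in peg/peg libraries 1 to 4.

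Avpr1a encodes the V1a receptor for vasopressin, the pituitary hormone that constricts vessels and retains water, and lies at chr10:122448499-122453452 on the plus strand. It had 3.61, 4.91, 4.01, 10.4 and 10 TMM CPM in HDR wild-type libraries 2 to 6 and 3.60, 3.66, 6.38, 12.1 and 10.1 in sg/sg libraries 2 to 6. Libraries 5 and 6 of each genotype, those with Ddx3y counts, were all above the other 6. The PE2 values were 5.07, 3.43, 3.00 and 4.97 in wild type and 6.27, 6.74, 50.7 and 3.28 in peg/peg. Library 3 was far above every other library of the series, and of the remaining peg/peg values 2 lay above the wild-type range and 1 within it. The log2 fold change in PE2 was 2.02 (SE 0.84, 95% interval 0.09 to 3.96), with edgeR unadjusted p = 0.0421 and adjusted p = 0.861. Without library 3 it was 0.39 (SE 0.31, 95% interval -0.32 to 1.11), with edgeR unadjusted p = 0.243. By an exact two-sided permutation test p was 0.171 with 4 against 4 libraries, where 0.0286 is the smallest possible. In HDR it was 0.12 (SE 0.41, 95% interval -0.78 to 1.03). The difference between the experiments was 1.89 (SE 0.91, 95% interval -0.03 to 3.81), with edgeR unadjusted p = 0.0530 and adjusted p = 0.954. Without library 3 this was 0.25 (SE 0.58, 95% interval -0.98 to 1.49).

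Htr2a encodes the 5-HT2A receptor, through which serotonin from platelets contracts large arteries, and lies at chr14:74640840-74709494 on the plus strand. It had 10.3, 9.81, 18.2, 29.8 and 19.0 TMM CPM in HDR wild type and 12.3, 12.0, 10.3, 24.8 and 31.7 in sg/sg, again with libraries 5 and 6 of each genotype above all others. The PE2 values were 14.2, 13.5, 8.00 and 7.59 in wild type and 15.5, 8.44, 1.87 and 11.1 in peg/peg, where library 3 was the lowest of all 18. Htr2a gave a log2 fold change of 0.06 (SE 0.38, 95% interval -0.76 to 0.88) in HDR. The PE2 value was -0.23 (SE 0.55, 95% interval -1.49 to 1.03), and it turned to 0.11 (SE 0.30, 95% interval -0.58 to 0.79) without library 3.

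Avpr1a and Htr2a were thus the receptors that separated the 4 HDR libraries with Ddx3y from the 6 without it. Avpr1a had 10 to 12.1 against 3.60 to 6.38 TMM CPM and Htr2a 19.0 to 31.7 against 9.81 to 18.2. The ratios of the means were 2.44 and 2.16. That is 2 of 10 receptors, and 19.7% of all 16423 genes tested did not overlap between the same libraries, a share close to that of the receptors. Eln moved with them, at 1760 to 2909 against 429 to 805 TMM CPM, and its part was not tested. The 4 libraries share the numbers 5 and 6 as well as Ddx3y, and these cannot be told apart. Within the 6 libraries without Ddx3y the genotype means were 4.17 TMM CPM in wild type and 4.54 in sg/sg for Avpr1a and 12.8 and 11.5 for Htr2a. Within the 4 with it they were 10.2 and 11.1 for Avpr1a and 24.4 and 28.2 for Htr2a. In PE2 the wild-type library labelled male, number 4, had 4.97 TMM CPM of Avpr1a and 7.59 of Htr2a, the first within and the second below the range of the 3 female wild-type libraries.

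Tbxa2r encodes the receptor for thromboxane A2, the platelet and vessel-wall prostanoid that constricts arteries and aggregates platelets, and lies at chr10:81328731-81335172 on the plus strand. It had 11.9, 13.4, 10.8, 10.7 and 11.9 TMM CPM in HDR wild type, with the smallest coefficient of variation of the 10 receptors in wild type (9.33%), and 12.8, 12.3, 7.17, 10.8 and 19.2 in sg/sg. The sg/sg values reached both above and below this band. The PE2 values were 17.7, 44.5, 38.6 and 24.5 in wild type and 23.7, 17.2, 9.06 and 31.8 in peg/peg, and the 4 highest PE2 libraries were the same 4 as for Adra1d. Tbxa2r gave a log2 fold change of 0.08 (SE 0.21, 95% interval -0.38 to 0.54) in HDR. The PE2 value was -0.62 (SE 0.42, 95% interval -1.57 to 0.34), or -0.38 (SE 0.34, 95% interval -1.16 to 0.41) without library 3.

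Which genes varied most like each receptor was read from levels centred on the group mean, log2(TMM CPM + 0.5), over all 18 libraries and 14760 other genes tested in both experiments. Over 18 libraries the highest r belonged to Adra1a, which varied most like Pck1 (r = 0.98, rho = 0.96), Mme (r = 0.97, rho = 0.97) and Acsl1 (r = 0.96, rho = 0.92). Over the 17 libraries without peg/peg library 3 these were Pck1 (r = 0.96, rho = 0.94), Mme (r = 0.95, rho = 0.96) and A830018L16Rik (r = 0.93, rho = 0.93). Pck1 encodes the phosphoenolpyruvate carboxykinase of liver and fat. It had 381, 88.6, 157, 489.6 and 612 TMM CPM in HDR wild type and 358, 248, 812, 325 and 181 in sg/sg, and 576, 207, 78.5 and 358 in PE2 wild type and 168, 303, 3.64 and 268 in peg/peg. Its highest and lowest HDR values fell in the libraries with the highest and lowest Adra1a, sg/sg library 4 and wild-type library 3. Ednrb varied most like Plcl2 (r = 0.94, rho = 0.93), Gstp2 (r = 0.92, rho = 0.91) and Blnk (r = 0.91, rho = 0.87).

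**Figure D4:**
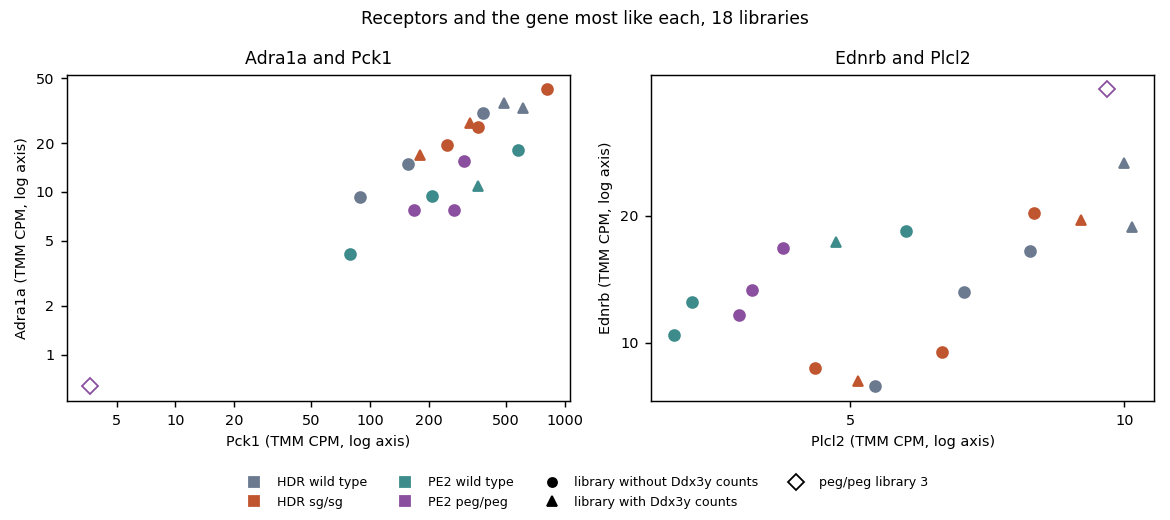
Adra1a against Pck1 and Ednrb against Plcl2, both in TMM CPM on log axes, with 1 point for each of 18 libraries coloured by group, triangles for libraries with Ddx3y counts and an open diamond for peg/peg library 3. Adra1a and Pck1 rise together within each group (r = 0.98 on centred values), and peg/peg library 3 is lowest for both.

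Adra1d varied most like Emc8 (r = 0.98, rho = 0.89), Capn3 (r = 0.96, rho = 0.93) and Ky (r = 0.96, rho = 0.74). Over 17 libraries these were Emc8 (r = 0.93, rho = 0.88), Capn3 (r = 0.92, rho = 0.88) and Ano1 (r = 0.92, rho = 0.93). Capn3 encodes a muscle calpain and Ano1 a Ca2+-activated chloride channel of smooth muscle. Tbxa2r varied most like Pbxip1 (r = 0.96, rho = 0.93), Mmp17 (r = 0.94, rho = 0.86) and Kcnmb1 (r = 0.94, rho = 0.92), the last of which encodes the beta subunit of the large-conductance K+ channel of smooth muscle. Over 17 libraries they were Galnt16 (r = 0.97, rho = 0.89), Pbxip1 (r = 0.95, rho = 0.88) and Mmp17 (r = 0.93, rho = 0.85). The nearest genes of Agtr1b were Fos (r = 0.84, rho = 0.82), Armc3 (r = 0.82, rho = 0.82) and Zfp518b (r = 0.81, rho = 0.84), where Fos is an immediate early transcription factor. Over 17 libraries they were Fbln7 (r = 0.86, rho = 0.83), Epha3 (r = 0.86, rho = 0.87) and Pcsk5 (r = 0.84, rho = 0.81). Those of Avpr1a were Gm48878 (r = 0.96, rho = 0.95), Twist2 (r = 0.96, rho = 0.95) and Prmt3 (r = 0.95, rho = 0.91). Over 17 libraries they were Jpt1 (r = 0.95, rho = 0.95), Arhgap20 (r = 0.95, rho = 0.96) and Dpep1 (r = 0.94, rho = 0.92). Those of Htr2a were Gm10561 (r = 0.95, rho = 0.92), Asb5 (r = 0.95, rho = 0.93) and Hbegf (r = 0.95, rho = 0.91). Over 17 libraries they were Cmtr2 (r = 0.96, rho = 0.91), Thyn1 (r = 0.95, rho = 0.95) and Cops4 (r = 0.95, rho = 0.94). For Ednra they were Tctn1 (r = 0.90, rho = 0.87), Cspp1 (r = 0.88, rho = 0.90) and C030013C21Rik (r = 0.88, rho = 0.89). Without peg/peg library 3 they were Tsc1 (r = 0.92, rho = 0.89), Agap2 (r = 0.91, rho = 0.88) and Rufy2 (r = 0.91, rho = 0.92). For Adra1b they were Csdc2 (r = 0.91, rho = 0.86), Phf23 (r = 0.89, rho = 0.85) and Nop53 (r = 0.86, rho = 0.87), and without that library Csdc2 (r = 0.91, rho = 0.84), Phf23 (r = 0.90, rho = 0.84) and Wnt9a (r = 0.85, rho = 0.82). Agtr1a had the weakest likeness, to Gm15706 (r = 0.79, rho = 0.80), Rhbdd3 (r = 0.74, rho = 0.73) and Cdk20 (r = 0.74, rho = 0.68), and without that library to Gm15706 (r = 0.81, rho = 0.84), Phpt1 (r = 0.81, rho = 0.80) and Lag3 (r = 0.77, rho = 0.73). Each r pools both experiments, and within them it could differ or be alike. Cdk20 with Agtr1a had r = 0.89 in HDR and 0.37 in PE2, and Ky with Adra1d 0.63 and 0.99. Ano1 with Adra1d had 0.70 and 0.99 without peg/peg library 3, whereas Pck1 with Adra1a had 0.98 and 0.98 over 18 libraries. The libraries share depth within an experiment and Ddx3y within HDR, and these values are descriptions.

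The promoters were searched for the element that the study edited, the CArG box. RefSeq windows from 250 bases before to 50 after the transcript start (GRCm38.p6) were at hand for 7 of the 10 receptors, all but Agtr1a, Adra1a and Adra1d, in 9 windows. On either strand 0 of 9 windows held the consensus CArG box, which stood in 1.63% of 32851 windows of all genes. This says only that these letters are not in these windows. By the study's account the element of the human TSPAN2 gene lies further upstream of the start than these windows reach. At a share of 1.63%, 0 of 9 is also the likely outcome for most sets of genes, so this search cannot set the receptors apart.

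Of 21 genes for the supply of agonists (renin-angiotensin enzymes, endothelins and their converting enzymes, thromboxane and prostaglandin synthases, and enzymes and transporters of serotonin and noradrenaline), 0 passed the adjusted threshold of edgeR in either experiment. In HDR 12 were tested, of which 0 were higher and 1 lower in sg/sg at an unadjusted p under 0.05, against 0.353% and 1.63% of all genes. In PE2 18 were tested, of which 2 were higher and 1 lower in peg/peg, against 3.04% and 1.27%, and without library 3 these counts were 1 and 1 of 20, against 2.19% and 1.91%. Their median log2 fold change was -0.09 in HDR, 0.04 in PE2 and 0.15 in PE2 without library 3. DESeq2 called 0 in HDR and 1, Ptgs2, in PE2 (adjusted p = 0.000307), against 0.00933% of 42879 and 0.189% of 17481 genes. Limma voom called 0 in both.

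Ptgs2 encodes the inducible cyclooxygenase, which makes the precursor of thromboxane A2 and of the other prostanoids. It had 3.28, 1.05, 1.76 and 1.30 TMM CPM in PE2 wild-type libraries 1 to 4 and 7.55, 7.60, 14.6 and 6.09 in peg/peg libraries 1 to 4. All 4 peg/peg libraries lay above all 4 of wild type, where 2.54% of all genes did not overlap in either direction. The log2 fold change of Ptgs2 was 2.28 (SE 0.44), with edgeR unadjusted p = 0.000783 and adjusted p = 0.861. Without library 3 it was 1.93 (SE 0.38), with edgeR adjusted p = 0.468. In HDR Ptgs2 had higher levels and a wide overlap, at 19.2 to 32.1 TMM CPM in wild type and 10.6 to 46.6 in sg/sg, with a log2 fold change of -0.15 (SE 0.34). The smallest p of the list in HDR belonged to Tbxas1, the gene for thromboxane synthase, with 5.55 ± 2.67 TMM CPM in wild type and 2.82 ± 0.974 in sg/sg (SD, n = 5 and 5) and a log2 fold change of -0.98 (SE 0.34) by edgeR, unadjusted p = 0.0151 and adjusted p = 1.000. In PE2 it was 0.60 (SE 0.32), or 0.22 (SE 0.21) without library 3.

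Downstream of the receptors, 0 of 22 genes for Gq/11 and Ca2+ signalling passed in either experiment by edgeR, DESeq2 or limma voom. At an edgeR unadjusted p under 0.05, 0 were higher and 1 lower in HDR, against 0.353% and 1.63% of all genes. In PE2 2 were higher and 0 lower, against 3.04% and 1.27%, and without library 3 the counts were 1 and 0, against 2.19% and 1.91%. The median log2 fold change of the list was -0.01 in HDR, 0.15 in PE2 and 0.10 in PE2 without library 3. The smallest p in both experiments was that of Prkcb, which encodes a protein kinase C. Its log2 fold changes of -1.75 (SE 0.69) in HDR and 4.23 (SE 1.65) in PE2 rested on wild-type library 3 (54.6 TMM CPM, others 3.51 to 9.07) and on peg/peg library 3 (148 TMM CPM, others 0.573 to 3.87), without which HDR gave -0.32 (SE 0.27) and PE2 gave 0.19 (SE 0.64). Without library 3 the smallest p in PE2 was that of Ryr2, the gene for a Ca2+ release channel, with a log2 fold change of 0.38 (SE 0.16), edgeR unadjusted p = 0.0427 and adjusted p = 0.989, beside 0.04 (SE 0.53) with it and 0.15 (SE 0.16) in HDR.

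Of 13 genes for receptor desensitisation in the tables (RGS proteins, receptor kinases and arrestins), 12 were tested in HDR and 13 in PE2 and 0 passed by any of the 3 tools. At an edgeR unadjusted p under 0.05, 0 were higher and 1 lower in HDR (0.353% and 1.63% of all genes), 0 and 0 in PE2 (3.04% and 1.27%) and 1 and 0 in PE2 without library 3 (2.19% and 1.91%). Their median log2 fold change was -0.06 in HDR, 0.05 in PE2 and -0.00 without library 3. In HDR the 1 was Rgs2, whose product speeds the switching off of Gq. It had 68.7 ± 18.1 TMM CPM in wild type and 48.8 ± 10.5 in sg/sg (SD, n = 5 and 5), a log2 fold change of -0.49 (SE 0.19) with edgeR unadjusted p = 0.0258 and adjusted p = 1.000. In PE2 peg/peg library 3 stood at 536 TMM CPM of Rgs2 and the other 7 at 41.2 to 72.7, and the log2 fold change of 1.72 (SE 0.81) became 0.08 (SE 0.19) without it. The 1 higher gene there was Rgs4, another RGS protein gene, at 0.41 (SE 0.16) with edgeR unadjusted p = 0.0347 and adjusted p = 0.989, beside 0.12 (SE 0.41) with library 3 and 0.26 (SE 0.42) in HDR.

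Among 22 receptors that dilate vessels or oppose constriction, 17 were tested in HDR and 20 in PE2, and 0 passed by any of the 3 tools. In HDR 0 were higher and 0 lower at an edgeR unadjusted p under 0.05 (0.353% and 1.63% of all genes), in PE2 2 and 0 (3.04% and 1.27%), and without library 3 1 and 0 (2.19% and 1.91%). Their medians were -0.04, -0.02 and -0.05 in HDR, PE2 and PE2 without library 3. The smallest p in PE2 was that of Agtr2, the angiotensin receptor that opposes the type 1 forms, which had 0.394 ± 0.167 TMM CPM in wild type and 2.84 ± 4.01 in peg/peg (SD, n = 4 and 4). Its log2 fold change was 2.85 (SE 0.96), with edgeR unadjusted p = 0.0177 and adjusted p = 0.861, and 1.09 (SE 0.46) without library 3. In HDR it was that of Adora2b, an adenosine receptor, at -1.27 (SE 0.59) with edgeR unadjusted p = 0.0544. This rested on wild-type library 3, at 5.94 TMM CPM where the other 9 HDR libraries had 0.478 to 1.14, and without that library the log2 fold change was -0.21 (SE 0.31).

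Among 25 further constrictor receptors, 19 were tested in HDR and 21 in PE2, and 0 passed by any of the 3 tools. The counts at an edgeR unadjusted p under 0.05 were 1 higher and 0 lower in HDR (0.353% and 1.63% of all genes), 2 and 0 in PE2 (3.04% and 1.27%) and 2 and 0 in PE2 without library 3 (2.19% and 1.91%). Their medians were -0.01, 0.03 and 0.01 in HDR, PE2 and PE2 without library 3. Npy1r, the receptor for neuropeptide Y that is released with noradrenaline, had 21.6 ± 4.63 TMM CPM in wild type and 49.6 ± 27.3 in peg/peg (SD, n = 4 and 4). Its log2 fold change was 1.20 (SE 0.39) in PE2, with edgeR unadjusted p = 0.0142 and adjusted p = 0.861, and 0.78 (SE 0.29) without library 3, beside 0.54 (SE 0.25) in HDR. Without library 3 the smallest p was that of Htr1b, the 5-HT1B receptor, with 26.6 ± 5.91 TMM CPM in wild type and 43.8 ± 8.62 in peg/peg (SD, n = 4 and 3), a log2 fold change of 0.71 (SE 0.20), and edgeR unadjusted p = 0.00716 and adjusted p = 0.957. With library 3 that change was 0.33 (SE 0.73), and in HDR it was 0.51 (SE 0.32). The smallest p in HDR was that of Adra2c, an alpha-2 adrenoceptor, at 0.58 (SE 0.23) with edgeR unadjusted p = 0.0294 and adjusted p = 1.000, against -0.90 (SE 0.63) in PE2 and -0.54 (SE 0.32) in PE2 without library 3.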

How the data were processed

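Poly(A)+ RNA of single mouse aortae had been sequenced as single-end reads, trimmed with fastp, aligned by the authors to GRCm38 with STAR 2.7.0f and summed per gene (GENCODE) with featureCounts of Subread 1.6.4. The strand setting is not given in the sources used here, and the methods and the labels give different read lengths. The deposited counts are whole numbers per gene and were used as they stand. The deposited normalised signal is each count divided by 1 DESeq2 1.22.1 size factor per library and served only to check this. Differential expression was tested with edgeR 4.0.16 (TMM, filterByExpr, quasi-likelihood, two-sided, Benjamini-Hochberg over all genes, threshold 0.05) within each experiment and as the difference between them over all 18 libraries, after a test on simulated data. DESeq2 1.42.0, limma voom 3.58.1, other scalings, filters and covariates and leaving out each library were alternatives. Single values and subtype shares were compared by exact two-sided permutation tests (scipy 1.17.1). Levels per kb used merged GENCODE exons.

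HDR libraries were assigned to genotypes by column name, and their column numbers do not match the numbers in the labels. p-values rest on mice, 1 library each. The receptors, gene lists and tests were chosen with earlier results of these data known. Named pathway genes were those with the smallest unadjusted p of each list and comparison, and likeness genes the 3 with the highest Pearson r. The urothelial list, the Ddx3y split and the 13-base comparison window were chosen after the values or sequences were seen. The results of 1 pathway list and 1 set of likeness genes are not reported here.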

Additional observations from a re-analysis of the deposited data

Results flagged for a closer look

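Of 60 groups of 4 or 5 values (levels and subtype shares), 6 held a library whose gap to its nearest neighbour, divided by the range of the group, was above Dixon's 95% critical value of 0.829 for 4 libraries or 0.71 for 5. Chance flags about 1 in 20 groups. Among the peg/peg libraries, number 3 stood high for Avpr1a (gap over range 0.927) and for the Adra1b share (0.924), and number 1 stood low for Agtr1a (0.850). Among PE2 wild type, library 3 stood high for Ednra (0.839). Among the sg/sg libraries, number 6 stood high for Adra1b, both in level (0.836) and in share (0.841), on 24 counts against 14 to 17 in the other 4.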

How the results depend on the processing

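Under every alternative run, 0 of 10 receptors were called in HDR, in PE2 and in the difference between them, and 0 single values or subtype shares passed after adjustment. Over 180 HDR, 180 PE2 and 210 difference values the lowest adjusted p was 0.669, 0.533 and 0.405. The direction turned in 18, 17 and 1 of them, always for receptors whose main log2 fold change was at most 0.33, 0.48 and 0.31 in size.

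Over all genes, calls in HDR went from 1 to 4 without a filter and to 4 with DESeq2, and were 1 to 1 with a library left out. In PE2 they went from 1 to 33 with DESeq2, 100 with DESeq2 without peg/peg library 3, 0 with a replicate block, 0 with that block and without library 3, 0 with sex as a covariate and 0 in females alone. With a library left out they were 0 to 2, with 0 without wild-type library 1, 2 or 4 or peg/peg library 1, 2 or 4 and 2 without peg/peg library 3. For the difference between experiments they were 0 to 4, at 1 without PE2 wild-type library 1, 2 without peg/peg library 4 and 4 without peg/peg library 2. The cause of these shifts was not tested.

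Leaving out 1 HDR library took the log2 fold change of Ednra to -0.0085 to 0.23 (-0.0074 from mean levels), of Adra1a to -0.16 to 0.25 (0.26), of Avpr1a to -0.15 to 0.34 (0.35), of Htr2a to -0.22 to 0.33 (-0.23 to 0.34) and of Tbxa2r to -0.12 to 0.23 (-0.13). In PE2 it took Agtr1a to -0.15 to 0.21 (-0.14), Ednra to -0.24 to 0.025 (0.032), Ednrb to -0.084 to 0.65 (-0.075 to 0.67), Adra1b to -0.081 to 0.41 (-0.071 to 0.42) and Htr2a to -0.60 to 0.11, and for the difference between experiments Htr2a to -0.68 to 0.031. In percentage points it took the HDR shares of Adra1a to -4.24 to 2.89 and of Adra1d to -1.70 to 5.20, and the PE2 shares of Agtr1a to -8.87 to 4.46, of Ednra to -10.7 to 0.142 and of Adra1a to -2.90 to 7.70. With raw counts the HDR share of Adra1a differed by 0.896 points. Avpr1a in PE2 ranged from 0.39 without peg/peg library 3 to 2.35, and Adra1d from -2.18 to -0.60.

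Alternatives added after seeing the data also turned directions. The HDR libraries with no Ddx3y gave 0.034 for Ednrb, -0.017 for Adra1d, -0.15 for Htr2a and -0.17 for Tbxa2r, and Ddx3y as a covariate gave -0.00274 for Htr2a. DESeq2 without peg/peg library 3 gave -0.072 for Ednrb, -0.063 for Adra1b and 0.11 for Htr2a. The replicate block without that library gave -0.059 for Agtr1a, 0.11 for Ednra, -0.12 for Ednrb and 0.00121 for Htr2a. The PE2 replicate numbers did not pair the mice: deviations of same-numbered libraries correlated at -0.25 to -0.036 over 16401 genes, and no library correlated best with its own number. HDR column numbers are not those of the labels, and their same-numbered libraries correlated at -0.18 to 0.61 over 16423 genes, 4 of 5 pairs above 0.1, with 3 of 10 libraries closest to their own number. They were not taken as pairs. A replicate block on them called 1 gene and 0 receptors, with Agtr1b at edgeR unadjusted p = 0.0191 and adjusted p = 1.000, and turned no direction.

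Depth limits Adra1b most, with 13 to 50 counts per HDR library, and the angiotensin shares, with 99 to 429 counts per pair. With 4 or 5 mice a group, intervals of 5 receptors in HDR and 8 in PE2 reached beyond a 2-fold change.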

Other observations

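The remaining marker lists show what else the libraries held, as sums of TMM CPM. Endothelial markers ran from 922 to 1845 in HDR wild type, 982 to 2492 in sg/sg, 1388 to 2182 in PE2 wild type and 643 to 3014 in peg/peg, with peg/peg library 3 lowest. The summed fibroblast markers ran from 5662 to 11871 in PE2 and from 3242 to 5602 in HDR. Among wild-type medians, Col1a1 (5117 against 2049), Dpt (455 against 304) and Pi16 (500 against 334) were higher in PE2 than in HDR. Pdgfra (74.2 against 209), Dcn (793 against 1511) and Lum (174 against 260) were lower in PE2. Smooth muscle markers ran from 15886 to 35610 in HDR and 27016 to 52459 in PE2. Pericyte markers were 1112 to 1760 in HDR and 877 to 1402 in PE2 apart from peg/peg library 3 at 352. Macrophage markers were 146 to 543 in HDR and 109 to 618 in PE2, and T lymphocyte markers 1.06 to 6.67 and 2.40 to 8.40. Cardiac markers were 3.94 to 104 in HDR and 4.23 to 523 in PE2, the last in peg/peg library 3. Tnnt2 alone stood at 517 there, so that sum rested on 1 of 5 cardiac markers. Markers of sympathetic neurons, the source of noradrenaline, were 18.7 to 63.6 in HDR and 29.0 to 243 in PE2, and Schwann cell markers 16.8 to 89.5 and 30.3 to 172.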
